A study of Arabidopsis thaliana with 28 samples.

Results

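Oxygen shortage in plants is met by a small regulatory circuit and a short metabolic pathway, and 10 Arabidopsis genes of both were followed here under abscisic acid (ABA). The members were taken by gene identifier: RAP2.3 (also EBP), RAP2.2, RAP2.12, HRE1 and HRE2 encode group VII ethylene response factors (ERFs), PDC1 and PDC2 encode pyruvate decarboxylases, ADH1 encodes an alcohol dehydrogenase, and PCO1 and PCO2 encode plant cysteine oxidases. Of these 10 genes, 9 had a row among the 18310 genes of the deposited table, and HRE2 had none. The label of that table names a filter on CPM, a read count scaled to library size. In the RNA results, shares of all genes, counts of measured genes and percentiles therefore refer to the genes kept in it. Whether the filter removed HRE2 cannot be seen, and the absence of a row says nothing about its response. Whole Col-0 seedlings had been raised for 3 days in darkness on mesh over liquid medium, then received 10 µM ABA, or ethanol as the mock, and were collected after 1, 4, 8, 12, 24, 36 or 60 h. The genes are AT3G16770 (RAP2.3, chr3:5705541-5707084), AT3G14230 (RAP2.2, chr3:4737120-4739298), AT1G53910 (RAP2.12, chr1:20134844-20137013), AT1G72360 (HRE1, chr1:27241696-27242968), AT2G47520 (HRE2, chr2:19502776-19503702), AT4G33070 (PDC1, chr4:15952257-15954803), AT5G54960 (PDC2, chr5:22310553-22312832), AT1G77120 (ADH1, chr1:28975255-28977417), AT5G15120 (PCO1, chr5:4898641-4900734) and AT5G39890 (PCO2, chr5:15974270-15976270), in the RefSeq annotation of build TAIR10.1. There were 2 libraries of poly(A) RNA in each of the 14 groups, and 28 in all. The labels name no mutation or transgene, the light regime after treatment is not described in the sources used here, and no oxygen treatment was part of the design.

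As background, group VII ERFs are transcription factors whose proteins start with methionine and cysteine. In air, plant cysteine oxidases oxidise that cysteine, and the proteins are then degraded through the N-degron pathway. When oxygen falls the factors persist and activate the core hypoxia genes, among them those of ethanol fermentation, in which pyruvate decarboxylase makes acetaldehyde from pyruvate and alcohol dehydrogenase reduces it to ethanol. ABA is a stress and seed hormone, and ADH1 is long known in Arabidopsis as a gene that responds to both ABA and low oxygen.

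The second codon carries the feature by which the group VII ERF proteins sense oxygen, so the first 30 coding bases of the 5 genes are shown, with that codon in capitals (RefSeq annotation, build TAIR10.1, 5′ to 3′ along the gene).
RAP2.3: atgTGTggcggtgctattatttccgattat
RAP2.2: atgTGTggaggagctataatctccgatttc
RAP2.12: atgTGTggaggagctataatatccgatttc
HRE1: atgTGCggaggagctgtaatttccgattac
HRE2: atgTGTgggggagctatcatttctgatttc
These lie at chr3:5705784-5705813 (plus strand), chr3:4738971-4739000 (minus), chr1:20135242-20135271 (plus), chr1:27241904-27241933 (plus) and chr2:19503461-19503490 (minus), in that order. All 5 carried a cysteine codon there, TGC in HRE1 and TGT in the other members; in HRE1 this held for 2 of 3 annotated proteins. The 5 genes shared the base at 21 of the 30 positions. A cysteine second codon occurred in 205 of 27389 annotated protein-coding genes, or 0.748%, and in none of PDC1, PDC2, ADH1, PCO1 and PCO2. These letters describe the genes; nothing in the RNA data measures the proteins.

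The 3 fermentation genes differed in the motifs found in the 250 bases before their annotated starts, shown because their responses to ABA are set side by side further on. The search covered both strands for ACGTG (the core of the ABA-responsive element), CACGTG (the G-box, which holds ACGTG on both strands and so counts as a pair of cores), GCCGCC (the GCC box bound by many ERFs) and AAACCA (the GT motif of alcohol dehydrogenase promoters). Capitals mark the matches.
ADH1: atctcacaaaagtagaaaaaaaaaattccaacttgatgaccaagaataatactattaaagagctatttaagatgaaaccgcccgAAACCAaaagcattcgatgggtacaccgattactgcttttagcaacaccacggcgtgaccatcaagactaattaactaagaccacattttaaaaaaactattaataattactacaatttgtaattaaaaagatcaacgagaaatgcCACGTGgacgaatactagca
PDC1: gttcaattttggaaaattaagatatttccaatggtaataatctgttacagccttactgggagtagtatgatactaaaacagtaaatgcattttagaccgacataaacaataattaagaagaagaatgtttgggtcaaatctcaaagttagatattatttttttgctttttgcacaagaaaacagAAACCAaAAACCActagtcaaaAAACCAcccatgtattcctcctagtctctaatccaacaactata
PDC2: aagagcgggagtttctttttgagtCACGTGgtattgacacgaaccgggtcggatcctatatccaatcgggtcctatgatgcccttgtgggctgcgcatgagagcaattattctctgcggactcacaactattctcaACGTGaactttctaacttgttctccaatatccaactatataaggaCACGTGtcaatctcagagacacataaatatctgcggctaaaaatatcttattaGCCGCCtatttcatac
The windows are chr1:28975005-28975254 (plus strand), chr4:15954804-15955053 (minus) and chr5:22312833-22313082 (minus), the last of which overlaps the neighbouring gene AT5G54970. ADH1 held 1 G-box, 20 to 15 bases before the annotated start, and 1 AAACCA. PDC2 held 2 G-boxes, 1 further ACGTG and 1 GCCGCC, and PDC1 held 3 AAACCA and no ACGTG. RAP2.3, whose window overlaps AT3G16760, and RAP2.2 each held 1 ACGTG, and RAP2.2 also held 1 AAACCA. None of the 4 motifs lay in the windows of RAP2.12, HRE1, HRE2, PCO1 or PCO2. Over 27438 windows of the same length, ACGTG was present in 22.9%, CACGTG in 6.49%, GCCGCC in 1.87% and AAACCA in 27.3%. A match is a description of the sequence and not a bound site. Bases between an annotated start and the first coding base were not searched. For ADH1 these run from chr1:28975255 up to the first coding base at chr1:28975509.

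Levels are given as RPKM, a read count divided by the length of the gene and the size of the library, which allows genes to be compared. The sizes used by the authors, recovered from the values, were not the plain read totals. Reads in the kept genes were 0.888 (mock replicate 1 at 1 h) to 1.08 (ABA replicate 2 at 60 h) times those sizes. Over the 14 mock libraries the mean level was 201.6 RPKM for RAP2.3, 141 for RAP2.12, 119 for RAP2.2, 15.3 for PCO1, 8.59 for PDC2, 8.28 for PCO2, 4.32 for HRE1, 4.18 for ADH1 and 0.984 for PDC1. The SDs over those libraries were 265, 34.7, 29.8, 5.95, 3.13, 1.32, 0.783, 0.811 and 0.432 RPKM in the same order, so the ranges of mean ± SD of neighbours in this order overlapped except from RAP2.2 to PCO1, from PCO2 to HRE1 and from ADH1 to PDC1. The 3 RAP genes were thus among the more abundant genes of the table, and RAP2.12 stood at the percentile 96.8 of mean RPKM against 8.13 for PDC1. PDC1 and HRE1 rested on few reads: 36 to 381 reads per group of 2 libraries for PDC1 and 67 to 216 for HRE1.

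**Figure D1:**
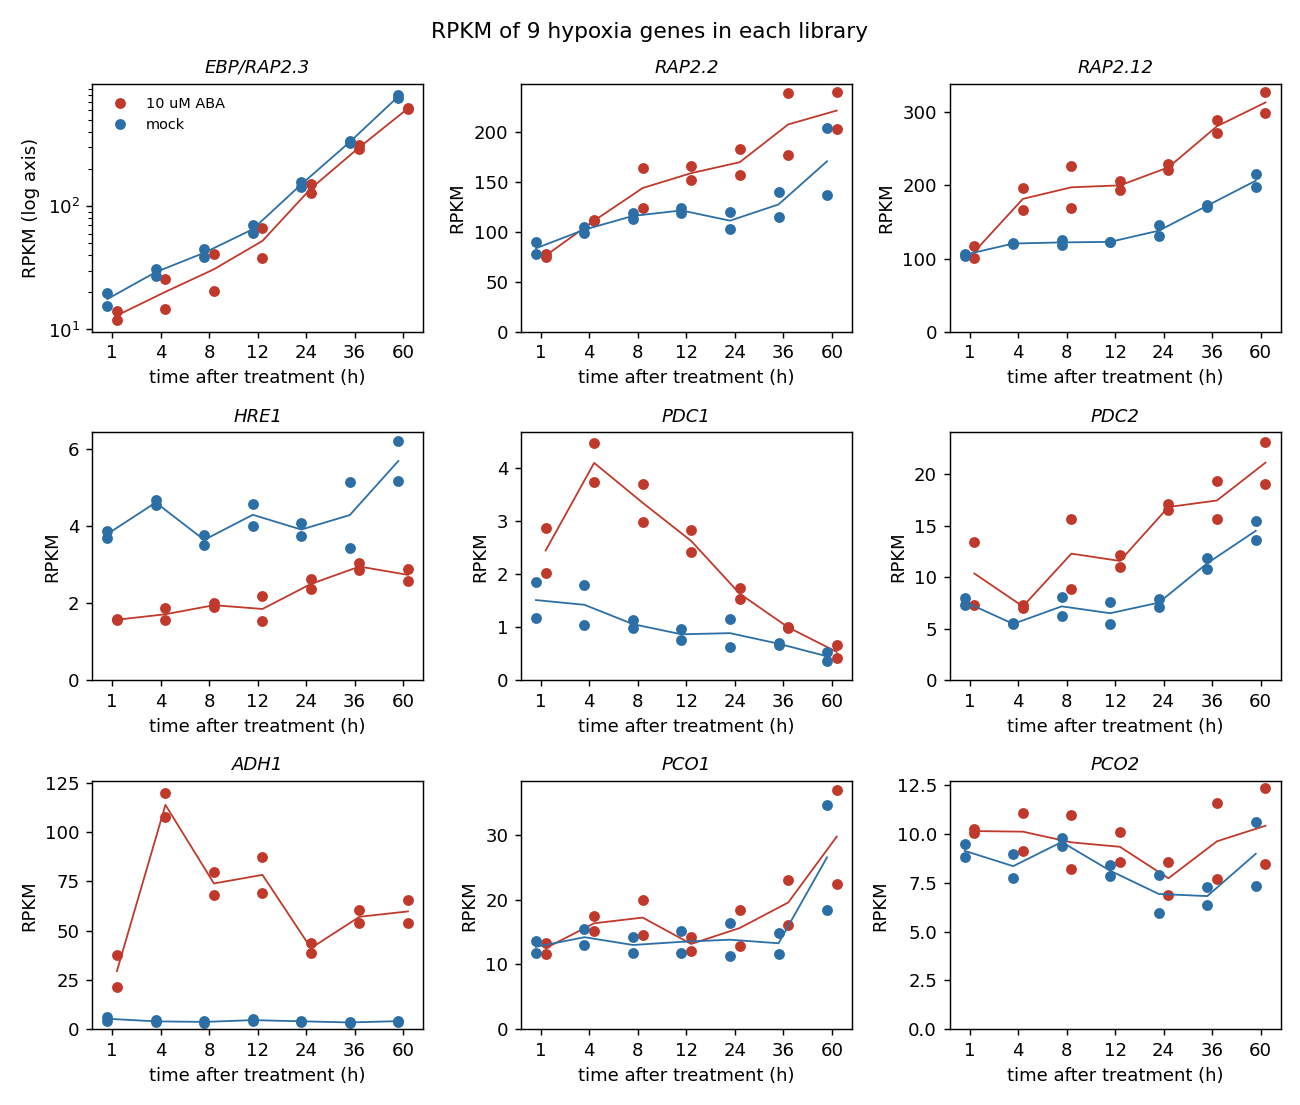
RPKM (vertical axis, linear from 0 except for EBP/RAP2.3, whose axis is logarithmic) against hours after treatment, evenly spaced, in each of 28 libraries for the 9 genes with a row. Points are libraries, lines join the means of 2, red is 10 µM ABA and blue is mock; ADH1 with ABA lies above every mock library, HRE1 with ABA lies below every mock library, and RAP2.3 climbs from 17.6 to 776 RPKM in mock.

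The effect of ABA is given as the difference in log2(RPKM + 1) from mock at the same time, ± its standard error in the fit, and a gene is called where limma's moderated test, with Benjamini-Hochberg adjustment over the 18310 genes, gave an adjusted p under 0.05. The labels do not say that the libraries of a group came from separate cultures, so the p-values measure the spread between these libraries. Where groups of 2 libraries are said below to overlap or lie apart, this describes the values and is not a test. Groups this small can lie apart without any effect, and the share of all genes that did so was not counted. At 1 h, 2 of the 9 genes were called, 1 higher and 1 lower, where 2.09% of all genes were called, 1.7% higher and 0.393% lower. The count was 4 at 4 h (3 higher, 1 lower; 12.7% of all genes, 8.98% higher and 3.74% lower) and 4 at 8 h (3 higher, 1 lower; 11.5%, 7.92% higher and 3.57% lower). It was 5 at 12 h and 5 at 24 h, each with 4 higher and 1 lower, where 12.5% of all genes were called at 12 h (8.37% higher, 4.09% lower) and 10.5% at 24 h (6.64% higher, 3.88% lower). At 36 h 3 genes were called, all higher (13.8% of all genes, 8.24% higher and 5.59% lower), and at 60 h 3, of which 2 were higher and 1 lower (13.6%, 7.84% higher and 5.73% lower). With a block for each pair of libraries that share a number, 2, 4, 5, 6, 6, 7 and 5 of the 9 genes were called in order of time, where the shares of all genes were 4.92%, 27.3%, 25%, 28.4%, 24.4%, 29.7% and 28.6%. For the mean over the 7 times, 7 of 9 were called, 5 higher and 2 lower, where 39.1% of all genes were called, 21% higher and 18.1% lower; with the block all 9 were called, and 58% of all genes, 29.1% higher and 28.9% lower. In the authors' deposited table, 2, 4, 5, 5, 3, 3 and 3 of the 9 genes had an FDR under 0.05 at 1, 4, 8, 12, 24, 36 and 60 h. In the same order 2.68%, 12.7%, 11.4%, 12.5%, 10.7%, 13.6% and 13.3% of all genes had one in the authors' deposited table. As whole seedlings were ground, fewer cells of a type and less RNA per cell cannot be told apart in any of these values.

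ADH1 had the largest response of the 9 genes, and it was called higher at every time. In mock seedlings it stayed low throughout, from 3.30 to 6.34 RPKM over 14 libraries, and its change over time there did not pass the F test (adjusted p = 0.481 by limma; 0.0219 with the replicate block). With ABA it stood at 21.4 and 37.6 RPKM at 1 h and at 119.9 and 108 RPKM at 4 h. The ABA libraries then read 68.0 and 79.9 RPKM at 8 h, 87.3 and 69.2 at 12 h, 43.6 and 38.7 at 24 h, then 53.7 and 60.4 at 36 h. The 60 h pair read 53.8 and 65.7. Every ABA library therefore exceeded every mock library, with the highest group at 4 h and a lower point at 24 h. The means at 4 h, 113.8 ± 8.71 RPKM against 4.00 ± 0.694 (SD, n = 2 each), gave a ratio of 28.5, and those at 1 h, 29.5 against 5.32, a ratio of 5.55. On the log2 scale the difference was 2.24 ± 0.22 at 1 h, 4.53 at 4 h, 3.99 at 8 h, 3.82 at 12 h, 3.07 at 24 h, 3.70 at 36 h and 3.57 at 60 h, each with the same standard error. Its mean over times was 3.56 ± 0.08 (limma, adjusted p = 1.597e-16), and no replicate left out ended a call at any time.

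The size of the ADH1 response depended on time. The F test of whether the ABA effect changed with time gave an adjusted p of 0.00215 (limma), which made ADH1 the only member called there, where 4.17% of all genes were called; with the replicate block 3 members passed, ADH1, PDC1 and RAP2.2, as did 14.2% of all genes. The effect at 60 h was smaller than that at 4 h by a log2 difference of -0.96 ± 0.31, which did not pass the test (limma, adjusted p = 0.127), but did with the block (adjusted p = 0.00285), where the block called 11.5% of all genes.

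PDC1 and PDC2, which feed acetaldehyde to alcohol dehydrogenase, were each called higher at some times. Without the block both were called at 12 h, and with it both were called at 8, 12 and 24 h. PDC1 had the lowest mean level of the 9 genes over the 28 libraries, 1.61 RPKM. With ABA its 2 libraries read 2.01 and 2.87 RPKM at 1 h, 4.46 and 3.72 at 4 h, 2.98 and 3.69 at 8 h, 2.83 and 2.41 at 12 h, 1.52 and 1.74 at 24 h, then 1.01 and 0.981 at 36 h. The 60 h pair read 0.659 and 0.412. Mock libraries read 1.17 and 1.85, 1.04 and 1.80, 0.976 and 1.14, 0.970 and 0.763, 0.628 and 1.15, 0.669 and 0.711, and 0.372 and 0.533 at the same times. The groups did not overlap from 1 to 36 h and overlapped at 60 h, and both treatments ended lower than they began. The log2 difference was 1.09 ± 0.18 at 4 h, 1.07 at 8 h and 0.96 at 12 h (limma, adjusted p = 0.000242, 0.000346 and 0.000914), which as ratios of mean RPKM were 2.88, 3.16 and 3.03. It was 0.46 at 1 h, 0.49 at 24 h, 0.24 at 36 h and 0.08 at 60 h, none of them called, although the block called 24 h (adjusted p = 0.0339). Since 1 was added to RPKM before the logarithm, differences of a gene at this level understate its ratio.

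The fall of the PDC1 effect between 4 and 60 h was the only call of a member for that contrast, at -1.01 ± 0.25 (limma, adjusted p = 0.0397; 2.46% of all genes were called, 0.732% higher and 1.73% lower). Of the 8 fits that left out 1 library of those times, only that without mock replicate 2 at 4 h kept the call, with values from -1.24 to -0.78 over the 8. It was also lost with a pseudocount of 0.1, with quantile normalization and with voom weights. SUC2, a marker of phloem companion cells, was called higher with ABA at 4, 8 and 12 h, by 0.98, 0.85 and 0.80 (log2). It was the only 1 of 9 tissue markers called at these times. Of all genes, 8.98%, 7.92% and 8.37% were called higher there. The part of SUC2 in the PDC1 values was not tested.

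PDC2 was called at 12 and 24 h. ABA libraries read 13.5 and 7.26 RPKM at 1 h, 7.32 and 7.01 at 4 h, 8.89 and 15.7 at 8 h, 11 and 12.1 at 12 h, 16.5 and 17.1 at 24 h, then 15.6 and 19.3 at 36 h. The 60 h pair read 19.1 and 23.1. In mock the pairs were 7.94 and 7.30, 5.42 and 5.52, 6.29 and 8.06, 5.46 and 7.56, 7.16 and 7.91, 10.8 and 11.9, and 13.6 and 15.4 RPKM. From 4 h on every ABA library lay above both mock libraries of its time, while at 1 h and 8 h the 2 ABA libraries lay far apart. The difference was called at 24 h (1.06 ± 0.23; limma, adjusted p = 0.00492; ratio of mean RPKM 2.23) and at 12 h (0.76; adjusted p = 0.041). The 12 h call held in 1 of 4 fits that left out a library, that without mock replicate 2, and was lost with quantile normalization (adjusted p = 0.0621) and with the 12 h libraries alone. With the block PDC2 was also called at 8, 36 and 60 h (adjusted p = 0.00658, 0.0123 and 0.0229). In mock PDC2 moved with time, from 5.47 RPKM at 4 h to 14.5 at 60 h (F test by limma, adjusted p = 0.002).

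Over the 7 times the mean effects of the decarboxylase genes were 0.63 ± 0.07 for PDC1 and 0.61 ± 0.09 for PDC2, against 3.56 ± 0.08 for ADH1. The ratios of mean RPKM over all ABA and all mock libraries were 2.27, 1.61 and 15.5 in that order. The 1 added to RPKM shrinks the log2 difference more for PDC1, which had the lower level. In levels, ADH1 averaged 64.8 RPKM over the ABA libraries, PDC2 13.8 and PDC1 2.24, whereas in mock PDC2 averaged 8.59 and ADH1 4.18. How the authors counted reads shared between related decarboxylase genes is not given in the sources used here.

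**Figure D2:**
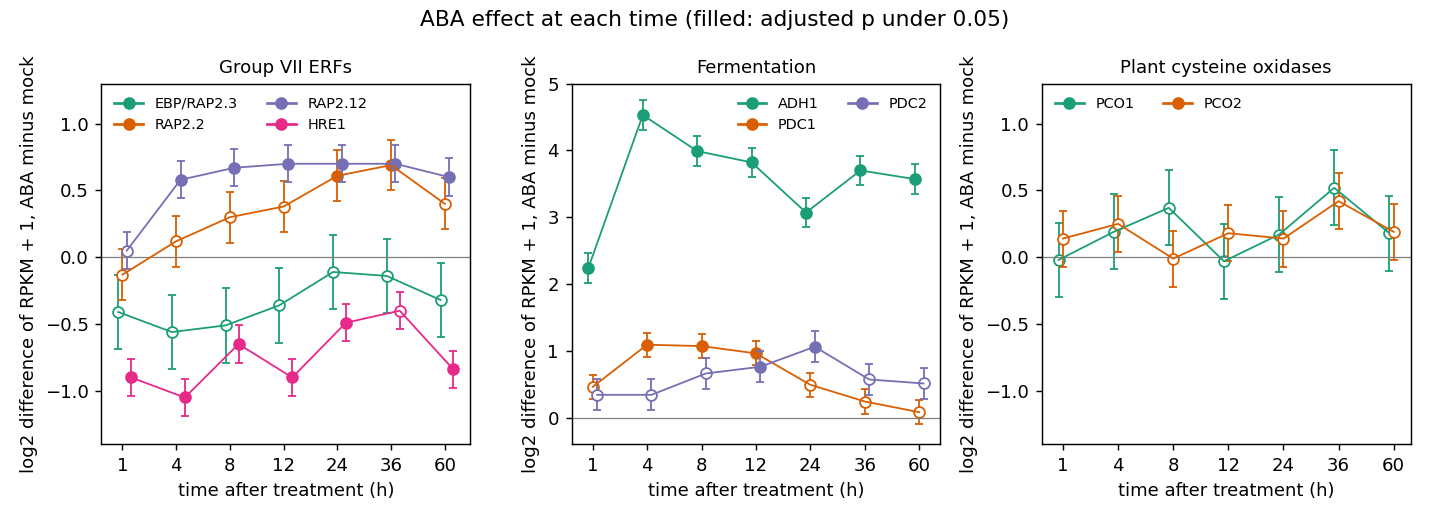
Log2 difference of RPKM + 1, ABA minus mock (vertical axes), against hours after treatment for 4 ERF, 3 fermentation and 2 cysteine oxidase genes; points are model estimates from 2 libraries per group, bars are standard errors and filled points passed an adjusted p under 0.05. ADH1 lies between 2.24 and 4.53 and HRE1 lies below 0 at all 7 times. No PCO1 or PCO2 point is filled in this fit, which has no replicate block. The vertical scale of the fermentation panel differs from the others.

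Among the transcription factor genes, RAP2.12 was higher with ABA from 4 h on. At 1 h its ABA libraries read 118 and 101 RPKM against 104 and 107 in mock, so the groups overlapped. ABA libraries then read 196 and 167 RPKM at 4 h, 169 and 226 at 8 h, 206 and 194 at 12 h, 229 and 221 at 24 h, then 272 and 290.0 at 36 h. At 60 h they read 299 and 328. The mock pairs were 121 and 119.6, 125 and 119, 123 and 123, 146 and 131, 174 and 171, and 215 and 198 RPKM, below both ABA libraries at each of these 6 times. The log2 difference was 0.05 ± 0.14 at 1 h and 0.58, 0.67, 0.70, 0.70, 0.70 and 0.60 from 4 to 60 h (limma, adjusted p from 0.00113 to 0.00566), ratios of 1.51 to 1.63 in mean RPKM. Calls were lost at 4 h without ABA replicate 1 (adjusted p = 0.109), at 8 h without ABA replicate 2 (0.0576) and at 60 h without mock replicate 2 (0.0527), and with the libraries of a single time fitted alone they held at 4 and 12 h only. The mean over times was 0.57 ± 0.05 (adjusted p = 3.05e-08), on top of an increase with time in mock from 105 to 207 RPKM between 1 and 60 h.

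RAP2.2, a close relative of RAP2.12, was called at 24 and 36 h. ABA libraries read 77.3 and 74.8 RPKM at 1 h, 111 and 111 at 4 h, 124 and 164 at 8 h, 166 and 151 at 12 h, 157 and 183 at 24 h, then 177 and 239 at 36 h. At 60 h they read 203 and 240.1. Mock libraries read 77.2 and 89.6, 99.1 and 105, 113 and 119, 124 and 119, 103 and 119, 115 and 140.2, and 137 and 204 RPKM. The groups were apart from 4 to 36 h and overlapped at 1 and 60 h. The difference was called at 24 h (0.61 ± 0.19; limma, adjusted p = 0.0469) and 36 h (0.69; adjusted p = 0.0174). The 24 h call was lost in each of the 4 fits that left out a 24 h library (adjusted p from 0.0777 to 0.286) and with median-ratio or quantile scaling, both calls were lost when a time was fitted alone, and the 36 h call was lost without ABA replicate 2 (0.238) or mock replicate 1 (0.17). With the block, RAP2.2 was also called at 12 and 60 h (adjusted p = 0.0173 and 0.0138). Its mean effect was 0.34 ± 0.07 (adjusted p = 0.000864).

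HRE1, whose transcript is known to rise in hypoxia, went the other way. ABA libraries read 1.59 and 1.56 RPKM at 1 h, 1.88 and 1.56 at 4 h, 1.90 and 2.003 at 8 h, 2.18 and 1.53 at 12 h, 2.37 and 2.64 at 24 h, then 2.86 and 3.05 at 36 h. At 60 h they read 2.59 and 2.89. Mock libraries read 3.70 and 3.89, 4.68 and 4.55, 3.51 and 3.78, 4.58 and 4.02, 4.08 and 3.74, 3.44 and 5.14, and 5.19 and 6.20 RPKM. Every ABA library lay below every mock library, over all times. The log2 difference was -0.90 ± 0.14 at 1 h, -1.05 at 4 h, -0.65 at 8 h, -0.90 at 12 h, -0.49 at 24 h, -0.40 at 36 h and -0.84 at 60 h, and all but that at 36 h were called (limma; adjusted p = 0.0728 at 36 h, or 0.0193 with the block). At 4 h, 1.72 RPKM against 4.61 gave a ratio of 0.372. The 24 h call (adjusted p = 0.0327) was lost in each of the 4 fits without a 24 h library (0.0796 to 0.2) and with voom weights (0.0693), and those at 24 and 60 h were lost when the libraries of that time were fitted alone. The mean over times was -0.75 ± 0.05 (adjusted p = 1.486e-09). The ratio of mean RPKM over all ABA and all mock libraries was 0.5055. As for PDC1, the 1 added to RPKM makes the log2 differences of HRE1 understate its ratios. HRE1 was called lower at 1 h already, where 0.393% of all genes were called lower.

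RAP2.3 (EBP/RAP2.3) changed strongly with time and was called lower with ABA only for the mean over times. In mock it stood at 15.6 and 19.7 RPKM at 1 h, 27.2 and 31.2 at 4 h, 38.5 and 45.4 at 8 h, 60.2 and 69.8 at 12 h, 158 and 143 at 24 h, then 339 and 324 at 36 h. At 60 h they read 752 and 799, so the mean was higher at each of the 6 steps. The ABA libraries read 14.1 and 11.9, 14.7 and 25.7, 20.5 and 41.1, 37.7 and 66.9, 128 and 150.3, 291 and 311, and 626 and 615 RPKM. The mean at 60 h was 44.0 times that at 1 h in mock and 47.8 times with ABA, and the F test for a change in mock gave an adjusted p of 7.514e-09 (limma). ABA libraries lay below both mock libraries at 1, 4, 36 and 60 h and overlapped with them at 8, 12 and 24 h. The log2 difference was -0.41, -0.56, -0.51, -0.36, -0.11, -0.14 and -0.32 in order of time (± 0.28), none called, and the mean over times, -0.34 ± 0.11, was called (limma, adjusted p = 0.0149). At 8 h the difference was -0.99 without ABA replicate 2 and was then called (adjusted p = 0.0454). For the ABA effect differing between times the adjusted p was 1.0.

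In mock seedlings 5 of the 9 genes passed the F test for a change over time, RAP2.3, RAP2.2, RAP2.12, PDC1 and PDC2, a share close to the 55% of all genes that passed. With the replicate block all 9 passed, as did 77.5% of all genes. PDC1 fell with time and the other 4 called genes ended higher than they began; without mock replicate 1 at 60 h the adjusted p of PDC1 was 0.0539. In mock group means, ADH1 stayed between 3.44 and 5.32 RPKM. PDC2 went from 7.62 RPKM at 1 h to 14.5 at 60 h, and PDC1 from 1.51 to 0.453.

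The cysteine oxidase genes, which encode the oxygen-dependent step of ERF turnover, were not called at any time in the fit without the replicate block. PCO1 ranged from 11.7 to 37.0 RPKM with ABA and from 11.3 to 34.6 in mock, and PCO2 from 6.89 to 12.4 and from 5.98 to 10.6 RPKM. Replicates of PCO1 differed widely at 60 h, with 22.5 and 37.0 RPKM with ABA and 18.4 and 34.6 in mock, replicate 2 being higher in both treatments. The largest differences were at 36 h, 0.52 ± 0.28 for PCO1 (16.1 and 23.0 RPKM against 11.7 and 14.9) and 0.42 ± 0.21 for PCO2 (7.68 and 11.6 against 6.37 and 7.28), with adjusted p of 0.296 and 0.233 (limma). With the replicate block both were called at 36 h (adjusted p = 0.00981 and 0.01). The mean effects were 0.20 ± 0.11 and 0.19 ± 0.08 (adjusted p = 0.161 and 0.07), and the block called both (0.00422 and 0.00164).

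A further list held the remaining machinery of the N-degron pathway, with the other cysteine oxidases, the methionine aminopeptidases, arginyl transferases, PRT6 and partners of the ERF proteins. Of 17 listed genes 16 were measured, and for the mean over times 2 were called higher and 1 lower, where 21% of all genes were called higher and 18.1% lower (39.1% in all). The list's median difference was 0.05 against -0.009 over all genes. At single times the counts depended on the replicate block. Without it 1 gene was called higher at 8 h and 1 at 12 h, and none at the other times. Of all genes, 7.92% were called higher at 8 h and 8.37% at 12 h. With the block the numbers called higher were 0, 2, 3, 3, 2, 1 and 1 in order of time, and 1 gene was called lower from 4 to 24 h. The block called 4.92%, 27.3%, 25%, 28.4%, 24.4%, 29.7% and 28.6% of all genes in either direction at these times. ACBP2, an acyl-CoA binding protein that tethers RAP2.12 at membranes, was higher by 0.27 ± 0.05 (limma, adjusted p = 0.000133; 20.3 against 16.5 RPKM), and the block added calls at 4 and 24 h (adjusted p = 0.0395 and 0.0208). VRN2, a Polycomb subunit that is itself an N-degron substrate, was higher by 0.26 ± 0.06 (adjusted p = 0.000991); with the block it was called at 4, 24, 36 and 60 h (adjusted p = 0.0415, 0.0136, 0.0344 and 0.0301) and also at 8 and 12 h. MAP2A, a methionine aminopeptidase, was lower, at -0.27 ± 0.04 (adjusted p = 7.69e-05), with calls from 4 to 24 h under the block (adjusted p from 0.0156 to 0.0305).

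The other core hypoxia genes were called in both directions. Of 41 listed genes 35 were measured, and for the mean over times 10 were called higher, 7 lower and 18 neither way, with a median difference of 0.06; 39.1% of all genes were called, 21% higher and 18.1% lower. SUS1, a sucrose synthase that releases sugar for glycolysis, stood at 2.97 RPKM in mock and 43.8 with ABA at 4 h (log2 difference 3.50 ± 0.28), and the difference was 1.11 at 60 h, with every ABA library above every mock library. AT5G42200 was higher by 1.21 ± 0.11 (adjusted p = 4.082e-08; 27.7 against 11.9 RPKM). AT4G39675 showed the largest decrease of the list, -2.48 ± 0.20 (adjusted p = 9.782e-09), with 15.5 RPKM over the ABA libraries and 82.2 over mock. PP2-A13, a phloem-lectin type gene, changed direction: it was higher with ABA at 4 h (139 ± 16.6 against 88.4 ± 4.54 RPKM; 0.64 ± 0.18, adjusted p = 0.02) and lower at 36 h (-0.74) and 60 h (-1.22; 189 ± 8.77 against 441 ± 41.3 RPKM; adjusted p = 6.575e-05). The 4 h call of PP2-A13 was lost without ABA replicate 2 (adjusted p = 0.174), mock replicate 1 (0.0667) or mock replicate 2 (0.148) and with quantile normalization (0.061), and the 36 h call without mock replicate 2 (0.0631). The test of an effect that varies over time gave an adjusted p of 0.000732 for PP2-A13 and 0.00149 for SUS1.

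**Figure D3:**
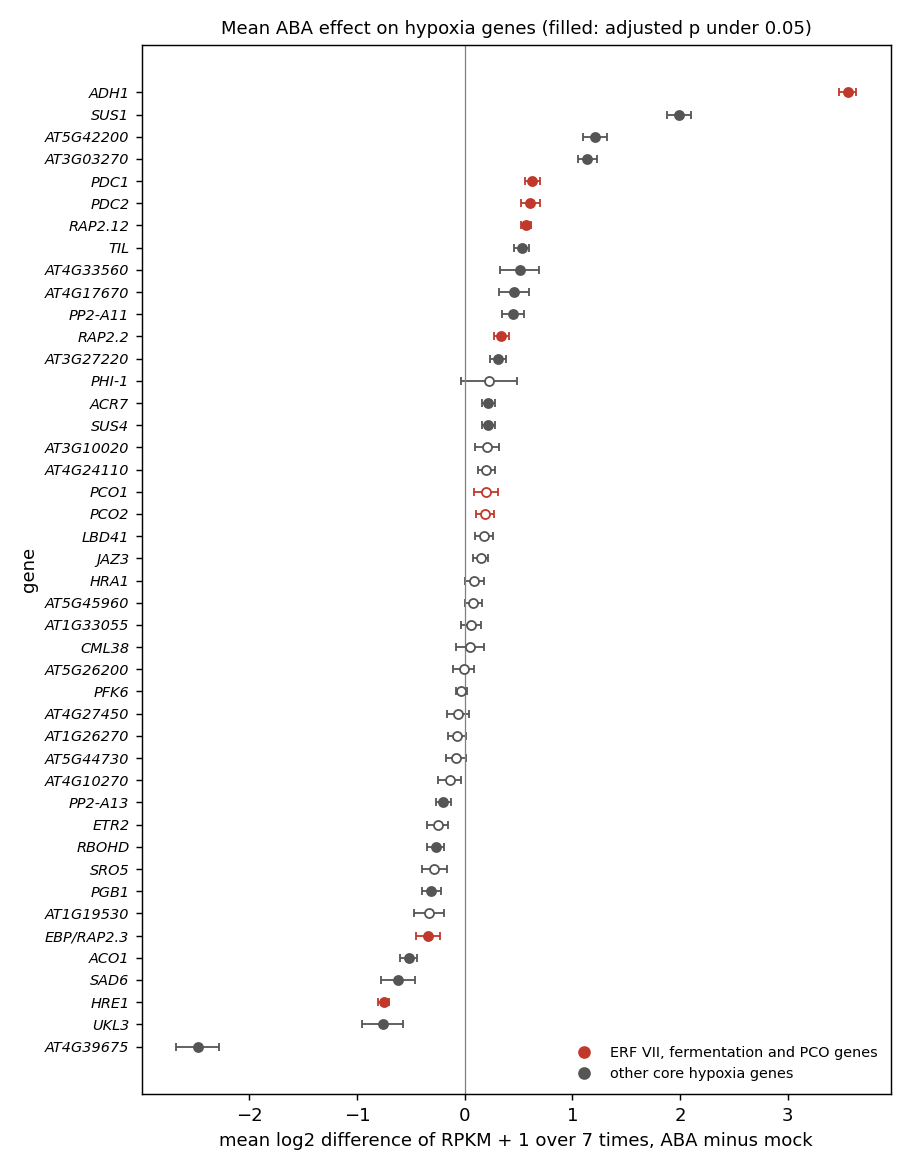
Mean log2 difference of RPKM + 1 over 7 times, ABA minus mock (horizontal axis), for the 9 members with a row (red) and 35 other core hypoxia genes (grey), sorted by value; bars are standard errors and filled points passed an adjusted p under 0.05. ADH1 at 3.56 and SUS1 at 1.99 stand at the high end and AT4G39675 at -2.48 at the low end, with most of the other genes near 0.

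Genes next to fermentation in carbon metabolism were measured for 17 of 18 listed, 3 of them also among the core hypoxia genes, and 8 were called higher and 5 lower for the mean over times, with a median of 0.12, against 21% and 18.1% of all genes (39.1% in all). ALDH2B7, a mitochondrial aldehyde dehydrogenase that can take up the acetaldehyde made by pyruvate decarboxylase, was higher by 1.3 ± 0.07 (limma, adjusted p = 1.409e-11). Its difference was 0.34 at 1 h, 2.55 at 4 h (117 ± 13.4 against 19.2 ± 1.21 RPKM) and 0.60 at 60 h, and the F test for an effect that differs between times gave an adjusted p of 0.000134. GABA-T, which degrades the non-protein amino acid GABA, was higher by 0.76 ± 0.06 (adjusted p = 6.042e-09; 225 against 128 RPKM). Of 8 further medium-chain alcohol dehydrogenase genes listed, 6 were measured, and 1 was called in each direction: AT1G64710 by 0.47 ± 0.08 and AT5G42250 by -0.41 ± 0.09. With the replicate block 3 of the 6 were called higher and 1 lower, where 29.1% and 28.9% of all genes were.

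Ethylene genes were listed because group VII ERFs belong to the ethylene response factor family and ethylene primes the hypoxia response. Of 15 listed genes 14 were measured, 1 was called higher and 2 lower for the mean over times (39.1% of all genes, 21% higher and 18.1% lower), and the median was -0.07. With the block 1 was called higher and 5 lower, where 29.1% of all genes were called higher and 28.9% lower. The receptor gene ERS2 was higher by 0.45 ± 0.09 (limma, adjusted p = 0.00069), and ACO1, an enzyme of ethylene synthesis that is also a core hypoxia gene, was lower at -0.52 ± 0.08 (adjusted p = 3.664e-05). ERF1A, an ERF of another group, was lower at -0.32 ± 0.09 (adjusted p = 0.00839).

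The ABA treatment and the tissue label were checked on lists of their own. All 7 ABA response markers were called higher for the mean over times, with a median difference of 2.87, and 6 of 7 already at 1 h. Lists were chosen with earlier results of these data known, so these calls are not an independent check of the treatment. All 9 markers of root, shoot, epidermis, guard cell and phloem were above 0 in every library. This is only a weak check of the label of whole seedlings. In a filtered table and at these read depths a value above 0 was likely. Their summed level ran from 2597 to 10840 RPKM with ABA and from 2877 to 10450 in mock. RBCS1A and PYK10 made up most of it, and without them the sum ran from 242 to 459 RPKM with ABA and from 243 to 488 in mock. Of the 9, SUC2 was called higher (0.53 ± 0.07) and SHR and RBCS1A lower (-0.26 and -0.35) for the mean over times; their part in the values of the hypoxia genes was not tested.

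To show which genes ran most like the members, Pearson's r of log2(RPKM + 1) over the 28 libraries was taken against 17663 genes with a mean of at least 1 RPKM; the libraries share times and treatments, so r is a description. ADH1 was most like AT5G24080 (r = 0.985), MSL6 (0.98) and AT5G50360 (0.979), whose mean ABA differences were 2.86, 1.24 and 3.65. RAP2.12 was nearest to AT3G20300 (0.981), LZF1 (0.979) and ALPHA DOX2 (0.974), and RAP2.2 to VOZ1 (0.95), AT5G48412 (0.95) and AT2G44850 (0.948). HRE1 ran with ABCG14 (0.941), AT1G52200 (0.922) and MYB27 (0.91), all of them lower with ABA, at -1.09, -2.30 and -1.48. PDC1 was nearest to PGM2 (0.919), AT5G55400 (0.909) and AT2G36895 (0.908), and PDC2 to AT1G75770 (0.929), TPX1 (0.911) and AT3G14205 (0.903). Among the members themselves, r was 0.90 between RAP2.2 and RAP2.12, 0.63 between ADH1 and PDC1, 0.47 between ADH1 and PDC2, -0.23 between PDC1 and PDC2, and -0.84 between ADH1 and HRE1.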

How the data were processed

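Poly(A) RNA of whole seedlings was sequenced after a stranded TruSeq preparation, per the labels' protocols. HTSeq 0.5.4, edgeR 3.6.2 and build TAIR10 are named in the submitters' processing notes, without order or options; the aligner and the use of strand in counting are not given in the sources used here. The authors deposited RPKM values of 18310 genes, and, per the file headers, a log2 fold change of ABA against mock and an FDR, an adjusted p-value, for each time. In each row of the deposited table the gene identifier and the first RPKM value share a field, split here at the space, so that field was read as other text before use. Reads were recovered from the RPKM steps: 100.0% of 512680 values were whole within 0.01 reads, and libraries held 16.27 to 26.6 M reads in these genes (median 20.55 M).

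Log2(RPKM + 1) was fitted with limma 3.58.1 (R 4.3.3), with a mean for each of 14 groups and an intensity trend, two-sided; p-values were adjusted over the 18310 genes. Residual degrees of freedom were 14, and the median standard error at a single time was 0.19. The fit was also run on simulated counts in which libraries varied independently. That run cannot vouch for the fit where libraries deviate in pairs. Members and lists were chosen with earlier results of these data known. List genes were named by rule: the 3 largest mean differences among called genes of a list, and, among genes whose effect was called to differ between times, the 2 with the smallest p. Same-numbered ABA and mock libraries deviated together at all 7 times (r from 0.43 to 0.74 across genes, which are not independent replicates), so the numbers were taken to pair the libraries. A block for each pair left 7 degrees of freedom. It is given where it changes a call of a member or moves a count over a list by more than 1.5 times. Unless the block is named, calls and the filled points of the figures come from the fit without it. That fit called fewer of all genes in each comparison. Sequences came from RefSeq (TAIR10.1, which carries the chromosome coordinates of TAIR10). Alternatives were a pseudocount of 0.1, a minimum mean of 1 RPKM, median-ratio and quantile scaling, voom weights on the recovered reads, each time fitted alone, and leaving out each of the 28 libraries.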

Additional observations from a re-analysis of the deposited data

Results flagged for a closer look

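ADH1 differed in its ABA effect between times (F test by limma, adjusted p = 0.002147), with the largest log2 difference, 4.53, at 4 h and the smallest, 2.24, at 1 h. The PDC1 effect at 60 h minus that at 4 h was -1.01, and as given with that result it lost its call in 7 of the 8 fits that left out a library.

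Among list genes the effect also differed between times for SUS1 (adjusted p = 0.001492), ALDH2B7 (adjusted p = 0.0001344) and PP2-A13 (adjusted p = 0.0007319). For PP2-A13 both ABA libraries lay above both mock libraries at 4 h (0.64) and below them at 24 h (-0.55), 36 h (-0.74) and 60 h (-1.22), where the 24 h difference did not pass the test (limma, adjusted p = 0.0586; 0.0168 with the replicate block). With 2 libraries a group, single libraries could not be tested for standing apart.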

How the results depend on the processing

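No value of a member changed sign among those called: of 1611 values of the 9 genes under the alternatives, 1534 kept their side of the threshold, 41 lost a call and 36 gained one. With the replicate block the members called numbered 7 at 36 h, 5 at 60 h, 2 for the change of the effect between 4 and 60 h, 3 for an effect that differs between times and 9 for the change in mock; apart from the calls given beside the results, it changed no other call of a member. Over all genes the block called 901, 4996, 4578, 5208, 4473, 5443 and 5233 genes at the 7 times against 383, 2329, 2104, 2281, 1926, 2531 and 2485, 2106 against 451 for the change of the effect between 4 and 60 h, and 2609 against 764 for an effect that differs between times. The libraries of a single time fitted alone called 2 members at 24 h, 1 at 36 h and 1 at 60 h, and 842, 1241 and 921 of all genes there. For that change, 0 members were called with a pseudocount of 0.1, quantile normalization or voom weights, and 0 to 1 with a library left out. Leaving out a library gave 3 members at 24 h in each fit (RAP2.2 and HRE1 lost) and 1 to 2 for an effect that differs between times, where PDC1 was added without mock replicate 2 at 4 h or mock replicate 1 at 24 h. The lone library left in a group was taken to vary like the other groups. The median difference over all genes moved by less than 0.1 under median-ratio and quantile scaling.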
